A study of Danio rerio with 6 samples.

Results

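The genes described here encode the subunits of voltage-gated sodium and calcium channels in the adult zebrafish brain. They are all genes of the array whose platform symbol names a single gene and begins with scn and a digit, cacna, cacnb or cacng. This gave 57 genes from 65 rows of the array, out of 19260 genes and 75212 rows in all. Of the 57 genes, 22 encode pore-forming subunits and 35 encode auxiliary subunits. The rule used names and no measured value, but it was set with earlier results of these data known.

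The study compared brains of hypoxic and normoxic adult zebrafish of the Tübingen strain, aged about 1 year and of unstated sex, with 1 brain on each Affymetrix Zebrafish Gene 1.0 ST array. The 3 hypoxia fish spent 3 h in water from which nitrogen gas had driven out oxygen, to 1.20 ± 0.6 mg/l. The 3 normoxia fish had ambient oxygen, at 6.6 ± 0.45 mg/l. Whether these errors are SD or SEM is not stated. Fish carry the numbers hypoxia 1 to 3 and normoxia 1 to 3, a difference is the mean hypoxia minus the mean normoxia log2 value, and levels are log2 intensities as deposited. A level on this array also reflects how well a probe set binds. Levels of different genes were therefore set against each other only in 4 equal bins of level and in dim filters. The tissue is whole brain, where fewer cells of a type and less RNA per cell cannot be told apart.

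Voltage-gated sodium channels carry the upstroke of the action potential. One large alpha subunit forms the pore, and small beta subunits with a single membrane span attach to it and alter its gating and its place in the membrane. Voltage-gated calcium channels couple depolarisation to transmitter release, contraction and gene expression. Their pore is formed by an alpha1 subunit of the L type (Cav1), the P/Q, N and R types (Cav2) or the T type (Cav3), and Cav1 and Cav2 pores assemble with a cytosolic beta subunit and an extracellular alpha2-delta subunit. The gamma family is named after a subunit of the muscle calcium channel, but several of its members are known in mammals mainly as TARPs, proteins that carry AMPA-type glutamate receptors to the synapse. Many of these genes are present in zebrafish as a pair of copies, a and b, from the genome duplication of teleost fish.

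In the deposited values the medians of pore-forming and auxiliary genes lay on different sides of 0. A higher mean in hypoxia was found for 21 of 22 pore-forming genes, with a median difference of 0.17 (range -0.09 to 0.40). It was found for 9 of 35 auxiliary genes, with a median of -0.12 (range -0.71 to 0.70). Of all genes, 38.9% had a higher mean in hypoxia and the median difference was -0.08. Both values varied with level. In the brightest of 4 equal bins, 22.3% of all genes were higher, with a median of -0.19. Of the 22 auxiliary genes in that bin 5 were higher, near that share, with a median of -0.11. The distance between the pore-forming and the auxiliary median was 0.30 log2 units, and it ran from 0.21 to 0.39 when any 1 array was left out. The count of higher auxiliary genes and the sign of their median depended on scaling and on single arrays. Shifting arrays to equal medians moved the median of all genes from -0.08 to 0.06 and the share of all genes higher to 59.1%. The counts were then 22 of 22 pore-forming and 19 of 35 auxiliary genes, with medians of 0.31 and 0.02. The auxiliary median was also above 0 without normoxia 1 (0.04) and after quantile normalization of gene values (0.05).

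**Figure D1:**
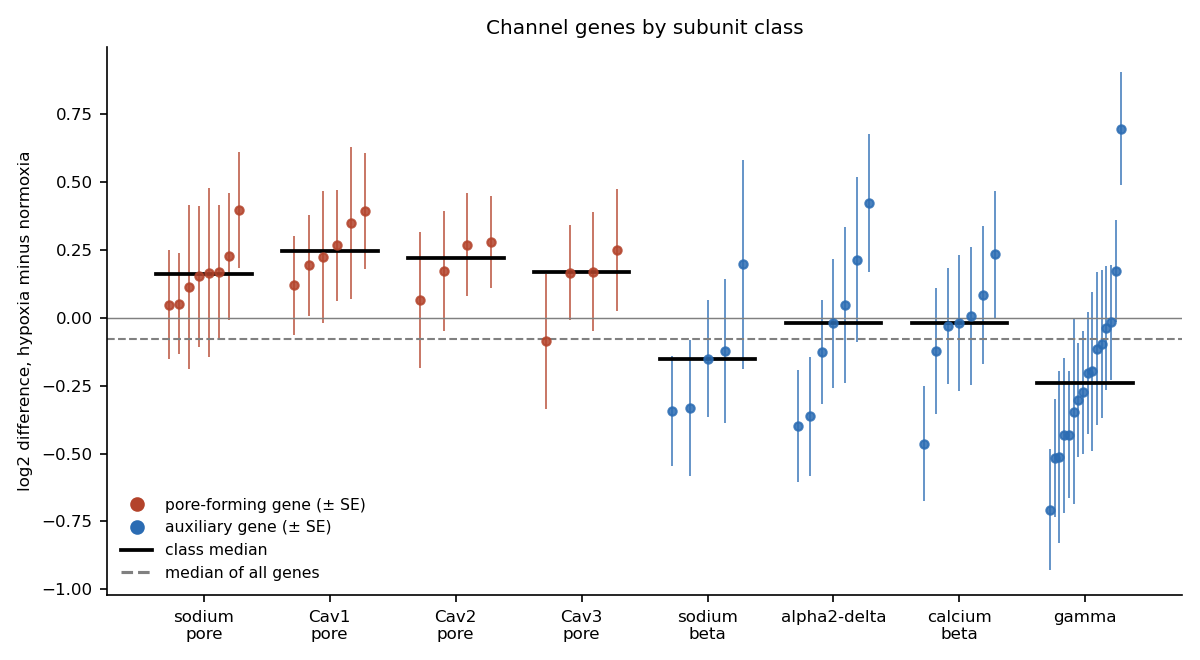
Log2 difference, hypoxia minus normoxia (vertical axis), of each of the 57 channel genes with its limma standard error, grouped by subunit class (horizontal axis), pore-forming classes on the left. Black bars are class medians and the dashed line is the median of all genes at -0.08; the pore-forming medians lie between 0.16 and 0.25, and the auxiliary medians between -0.24 and -0.02.

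No channel gene passed the threshold of 0.05 on the adjusted p. The adjusted p of the 57 genes ran from 0.72 to 0.997 (limma, Benjamini-Hochberg adjustment across the 19260 genes), while of all genes 0.00519% passed, which is 1 gene. At an unadjusted p under 0.05 there was 1 channel gene higher in hypoxia (1.75%) against 0.903% of all genes, and there were 2 lower (3.51%) against 5.76%. All 3 hypoxia values lay above all 3 normoxia values in 3 channel genes (5.26%) against 2.33% of all genes, and below them in 4 (7.02%) against 9.02%. The counts rested in part on normoxia 2, since without that array the unadjusted threshold was passed by 6 channel genes that were higher in hypoxia (10.5%) and by 9 that were lower (15.8%). In that fit 8.32% of all genes were higher and 16.3% lower at the same threshold, so the channel shares were near those of all genes. The split between pore-forming and auxiliary genes is made of small differences. The median size of a difference was 0.20 among the channel genes, and their median standard error was 0.23.

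Sodium channel pores were measured for 8 genes, and the mean of each was higher in hypoxia, with a median difference of 0.16 (range 0.05 to 0.40). Without normoxia 2 the count was 5 of 8, and it was 4 of 8 in a fit with the spread of each array as a covariate, a choice made with the data in view. scn1laa, scn4aa, scn4ab and scn12aa lay in the dimmest of 4 equal bins of level, where 65.2% of all genes were higher. scn1laa had the largest difference. Together with scn1lab it is the zebrafish counterpart of SCN1A, the gene mutated in human Dravet syndrome. scn1laa read 6.16, 6.20 and 6.39 in hypoxia 1 to 3 and 5.60, 6.23 and 5.72 in normoxia 1 to 3. The normoxia 2 value lay among the hypoxia values, so the groups overlapped, with a difference of 0.40 (SE 0.213, limma adjusted p = 0.72). All 4 rows of scn1laa gave a higher mean in hypoxia, with differences from 0.24 to 0.60.

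The copy scn1lab read 8.72, 8.58 and 8.85 in hypoxia and 9.02, 8.10 and 8.52 in normoxia. Its difference was 0.17 (SE 0.246), and the lowest and highest values of all 6 fish both came from normoxia. scn8aa and scn8ab encode the counterparts of Nav1.6, the main channel of the axon initial segment and nodes of Ranvier in mammals. scn8ab read 8.86, 8.86 and 9.16 in hypoxia and 9.01, 8.27 and 8.92 in normoxia. As with scn1lab, normoxia 2 was the lowest fish, and without it the difference of scn8ab was -0.005 and that of scn1lab was -0.05. scn8aa had a difference of 0.15.

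scn4aa and scn4ab encode the skeletal muscle channel Nav1.4. Their differences were 0.11 and 0.17, with values of 6.81, 6.29 and 6.42 for scn4aa in hypoxia and 5.82, 7.02 and 6.34 in normoxia. The spread between normoxia fish, an SD of 0.602, was larger than the difference. scn5lab, which is needed in the zebrafish heart, had a difference of 0.05, and its rows gave 0.16 and -0.06. scn12aa also had a difference of 0.05, with rows at 0.00, -0.09 and 0.25. These were the 2 channel genes whose rows disagreed in sign, among 4 genes with several rows.

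Sodium channel beta subunits had a lower mean in hypoxia in 4 of 5 genes, with a median difference of -0.15 (range -0.34 to 0.20). The class turned with scaling: its median was -0.01 with equal array medians and 0.05, with 3 of 5 genes higher, both with the spread covariate and with quantile normalized genes. Without normoxia 1 it was -0.055. scn1bb encodes a beta1 subunit, which speeds channel inactivation and also acts in cell adhesion. It read 10.78, 10.82 and 11.05 in hypoxia and 11.53, 10.98 and 11.17 in normoxia. Hypoxia 3 lay just above normoxia 2, and the difference was -0.34 (SE 0.203, adjusted p = 0.736). scn4ba encodes a beta4 subunit, which in mammalian neurons supports a resurgent sodium current. It read 9.71, 10.35 and 10.15 in hypoxia and 10.83, 10.18 and 10.20 in normoxia, a difference of -0.33 (SE 0.25).

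Its copy scn4bb had a difference of -0.15 and scn2b one of -0.12. scn2b and scn4ba are direct neighbours among protein-coding genes in the RefSeq annotation of GRCz12tu. scn3b was the 1 beta gene with a higher mean in hypoxia. It read 9.16, 9.49 and 10.50 in hypoxia and 10.11, 8.95 and 9.50 in normoxia, so its difference of 0.20 (SE 0.384) rested on hypoxia 3.

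Calcium channel pores of the L type had a higher mean in hypoxia in 6 of 6 genes, with a median difference of 0.25. The count stayed 6 of 6 with any 1 array left out, with medians from 0.19 to 0.33. It was 5 of 6 with the spread covariate. cacna1fb encodes Cav1.4, the channel of photoreceptor synapses. It read 7.07, 7.06 and 6.79 in hypoxia and 6.39, 6.95 and 6.40 in normoxia, with a difference of 0.39 (SE 0.213, adjusted p = 0.723). Normoxia 2 again lay within the hypoxia range. cacna1c encodes Cav1.2, the L-type channel of heart muscle and many neurons. It read 9.27, 9.13 and 9.01 in hypoxia and 9.20, 8.64 and 8.77 in normoxia, with a difference of 0.27 (SE 0.205). Here normoxia 1 was the fish that overlapped, and without it the difference was 0.43.

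cacna1sa and cacna1sb encode Cav1.1, the voltage sensor of skeletal muscle. cacna1sa read 7.54, 7.14 and 7.02 in hypoxia and 6.43, 7.46 and 6.76 in normoxia, a difference of 0.35 (SE 0.28). cacna1sb had a difference of 0.22. Without normoxia 1 the differences of cacna1sa and cacna1sb were 0.12 and 0.09, and with the spread covariate 0.01 and -0.02. cacna1da and cacna1db encode Cav1.3, which works at hair cell synapses and in pacemaking neurons. Their differences were 0.19 and 0.12.

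The presynaptic Cav2 pores had a higher mean in hypoxia in 4 of 4 genes, with a median difference of 0.22, and in 3 of 4 without hypoxia 1 (0.11) or without normoxia 2 (0.15). cacna1bb encodes an N-type channel of nerve terminals. It read 7.78, 7.71 and 7.89 in hypoxia and 7.59, 7.48 and 7.47 in normoxia. All hypoxia fish were above all normoxia fish, with means of 7.79 ± 0.09 in hypoxia and 7.51 ± 0.07 in normoxia (SD, n = 3). The difference was 0.28 (SE 0.169, adjusted p = 0.736), and between 0.23 and 0.32 with any 1 array left out. The copy cacna1ba read 7.75, 7.39 and 7.49 in hypoxia and 7.76, 7.15 and 7.20 in normoxia, with a difference of 0.17.

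The P/Q-type pore genes cacna1aa and cacna1ab, whose channel drives release at most fast central synapses, had differences of 0.27 and 0.07. cacna1aa read 9.55, 9.26 and 9.17 in hypoxia, against 9.22 in normoxia 1 and 8.95 in normoxia 3, with normoxia 2 between these. Only hypoxia 3 and normoxia 1 crossed. The T-type Cav3 pores, which open near rest and support burst firing, had a median difference of 0.17, which was 0.08 without hypoxia 1 and 0.28 without normoxia 1. cacna1ib read 7.53, 7.37 and 7.46 in hypoxia and 7.37, 7.36 and 7.13 in normoxia. The groups did not overlap, but hypoxia 2 and normoxia 1 were equal to 2 decimals, and the difference was 0.17 (SE 0.174). Its 3 rows gave differences from 0.14 to 0.19. The groups overlapped in the rows at 0.14 and 0.19 and were apart only in the row at 0.16. cacna1ia (0.25) and cacna1g (0.17) pointed the same way, and cacna1ia was highest in hypoxia 1 at 8.16. cacna1ha was the single pore gene with a lower mean in hypoxia, at -0.09 (SE 0.249).

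**Figure D2:**
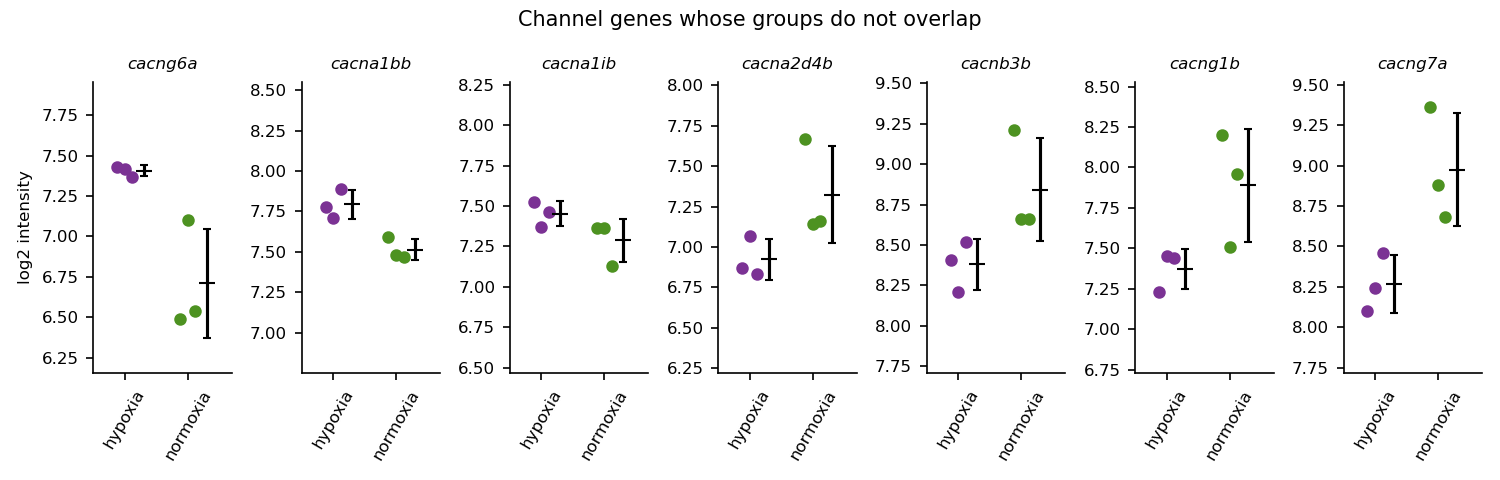
Log2 intensity (vertical axis, the same span in each panel) in each hypoxia and normoxia fish for the 7 channel genes whose groups do not overlap, with the mean and SD of 3 fish beside the points. cacng6a, cacna1bb and cacna1ib are higher in hypoxia and cacna2d4b, cacnb3b, cacng1b and cacng7a are lower, and the margin for cacna1ib is close to 0.

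The alpha2-delta subunits, which help to bring calcium channels to the membrane, were mixed, with 3 of 7 genes higher in hypoxia and a median of -0.02. That median was -0.22 without normoxia 2, 0.10 without hypoxia 1 and 0.12 with equal array medians. cacna2d2a had the largest difference. It read 9.56, 9.46 and 9.23 in hypoxia and 9.53, 8.83 and 8.62 in normoxia, a difference of 0.42 (SE 0.254, adjusted p = 0.736). Normoxia 1 lay with the hypoxia fish, and the difference was 0.69 without it and 0.24 without normoxia 3. cacna2d4b had a difference of nearly equal size in the other direction. The mammalian gene of this name serves photoreceptor synapses.

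cacna2d4b read 6.87, 7.07 and 6.83 in hypoxia and 7.67, 7.14 and 7.16 in normoxia. Its groups did not overlap, with means of 6.92 ± 0.13 in hypoxia and 7.32 ± 0.30 in normoxia (SD, n = 3) and a difference of -0.40 (SE 0.206, limma adjusted p = 0.72), which was -0.23 without normoxia 1. cacna2d3 had a difference of -0.36, from 6.80, 6.67 and 7.04 in hypoxia and 7.39, 6.82 and 7.39 in normoxia. Normoxia 2 overlapped with the hypoxia fish, and without it the difference was -0.55. Differences of the other 4 alpha2-delta genes lay between -0.13 for cacna2d3a and 0.21 for cacna2d4a, and cacna2d4a ranged from 6.28 to 7.26 among normoxia fish alone.

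The cytosolic beta subunits, which release the pore subunit from the endoplasmic reticulum and tune its gating, were also mixed, 3 of 7 being higher in hypoxia, and their median was -0.02. This count swung widely, to 6 of 7 with equal array medians (0.12), with quantile normalized genes (0.18), with the spread covariate (0.24) and without normoxia 1 (0.17), and to 1 of 7 without normoxia 2 (-0.13). cacnb3b had the largest difference. It read 8.41, 8.21 and 8.52 in hypoxia and 9.21, 8.66 and 8.66 in normoxia. All hypoxia fish were below all normoxia fish, with means of 8.38 ± 0.16 in hypoxia and 8.84 ± 0.32 in normoxia (SD, n = 3) and a difference of -0.46 (SE 0.213, limma adjusted p = 0.72). Without normoxia 1 it was -0.28. cacnb1, the muscle-type beta subunit, read 8.07, 8.13 and 8.75 in hypoxia and 8.35, 7.92 and 7.98 in normoxia, so its difference of 0.23 (SE 0.236) followed hypoxia 3. The remaining 5 beta genes had differences between -0.12 for cacnb2b and 0.08 for cacnb3a, smaller than their standard errors. Those of cacnb4a and cacnb4b, whose mouse counterpart is mutated in the epileptic lethargic strain, were -0.02 and 0.01.

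The gamma family had a lower mean in hypoxia in 14 of 16 genes, with a median of -0.24, where 61.1% of all genes had a lower mean, and it held all 3 channel genes with an unadjusted p under 0.05. Without normoxia 1, 10 of 16 were lower with a median of -0.11, and without hypoxia 1 also 10 of 16 (-0.19). With equal array medians 10 were lower (-0.10), and 9 were lower with quantile normalized genes (-0.13) and with the spread covariate (-0.12). cacng7a encodes a TARP of the gamma-7 type. It read 8.10, 8.24 and 8.46 in hypoxia and 9.36, 8.88 and 8.68 in normoxia. All hypoxia fish were lower, with means of 8.27 ± 0.18 in hypoxia and 8.97 ± 0.35 in normoxia (SD, n = 3) and a difference of -0.71 (SE 0.223, limma unadjusted p = 0.0111, adjusted p = 0.72). It was the largest lower difference among the channel genes, and it lay between -0.85 and -0.51 with any 1 array left out.

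cacng6a, whose mammalian counterpart belongs to the muscle-type gamma subunits, was the largest higher one. It read 7.43, 7.42 and 7.37 in hypoxia and 6.49, 7.10 and 6.54 in normoxia. The hypoxia fish were nearly equal at 7.41 ± 0.03 and the normoxia fish averaged 6.71 ± 0.34 (SD, n = 3). The difference was 0.70 (SE 0.209, limma unadjusted p = 0.00868, adjusted p = 0.72). It lay between 0.59 and 0.89 with any 1 array left out.

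cacng1b encodes gamma-1, the subunit of the skeletal muscle channel that gave the family its name. It read 7.23, 7.45 and 7.44 in hypoxia and 8.20, 7.51 and 7.96 in normoxia, without overlap. Its difference was -0.52 (SE 0.217, limma unadjusted p = 0.0409, adjusted p = 0.72), and -0.36 without normoxia 1.

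Among the TARPs of the stargazin group, cacng8b, cacng4b, cacng3b and cacng4a had differences of -0.43, -0.51, -0.43 and -0.35. In the same order these were -0.25, -0.18, -0.14 and -0.01 without normoxia 1. cacng3b read 8.62, 8.68 and 9.18 in hypoxia and 9.85, 8.85 and 9.08 in normoxia, so hypoxia 3 overlapped with normoxia. cacng4b read 6.81, 6.90 and 7.40 in hypoxia and 8.22, 6.97 and 7.46 in normoxia, and the SD of 0.63 between normoxia fish exceeded the difference. cacng2a, cacng2b and cacng8a, the stargazin copies and the hippocampal type, had differences of -0.10, -0.02 and -0.04, all below their standard errors. cacng3a was the other gamma gene with a higher mean, at 0.17.

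The extremes of the gamma family lie close together, with 1 gene between them. In the RefSeq annotation of GRCz12tu cacng6a, cacng8a and cacng7a are consecutive protein-coding genes, and their differences were 0.70, -0.04 and -0.71. The matching run of b copies, cacng6b, cacng8b and cacng7b, had differences of -0.11, -0.43 and -0.30. cacng1b and cacng4b are also neighbours, with -0.52 and -0.51, as are cacng5a, cacng1a and cacng4a with -0.27, -0.20 and -0.35.

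Copies of a gene mostly had the same sign. Of 22 pairs, 17 had differences of the same sign, including all 8 pore-forming pairs, and 5 had opposite signs. The 8 pore-forming pairs follow from the class count, since cacna1ha, the only pore gene with a lower mean, is in no pair. Of the auxiliary genes 26 of 35 were lower, so shared signs were likely there too. Agreement of copies beyond these class counts was not tested. The opposite pairs were auxiliary, namely cacna2d4, cacnb3, cacnb4, cacng3 and cacng6. The difference of cacng6a exceeded that of cacng6b by 0.81, and that of cacnb3a exceeded that of cacnb3b by 0.55. cacng6b read 7.84, 7.48 and 7.23 in hypoxia and 7.66, 8.13 and 7.10 in normoxia, and cacnb3a read 8.93, 8.72 and 9.06 in hypoxia and 9.36, 8.45 and 8.65 in normoxia. In an exact two-sided permutation test of the copies' difference over fish, cacng6, cacnb3 and cacng8 reached p = 0.1, the smallest that 3 against 3 fish allow. After Benjamini-Hochberg adjustment over the 22 pairs the exact permutation p was 0.733 for each of these 3.

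**Figure D3:**
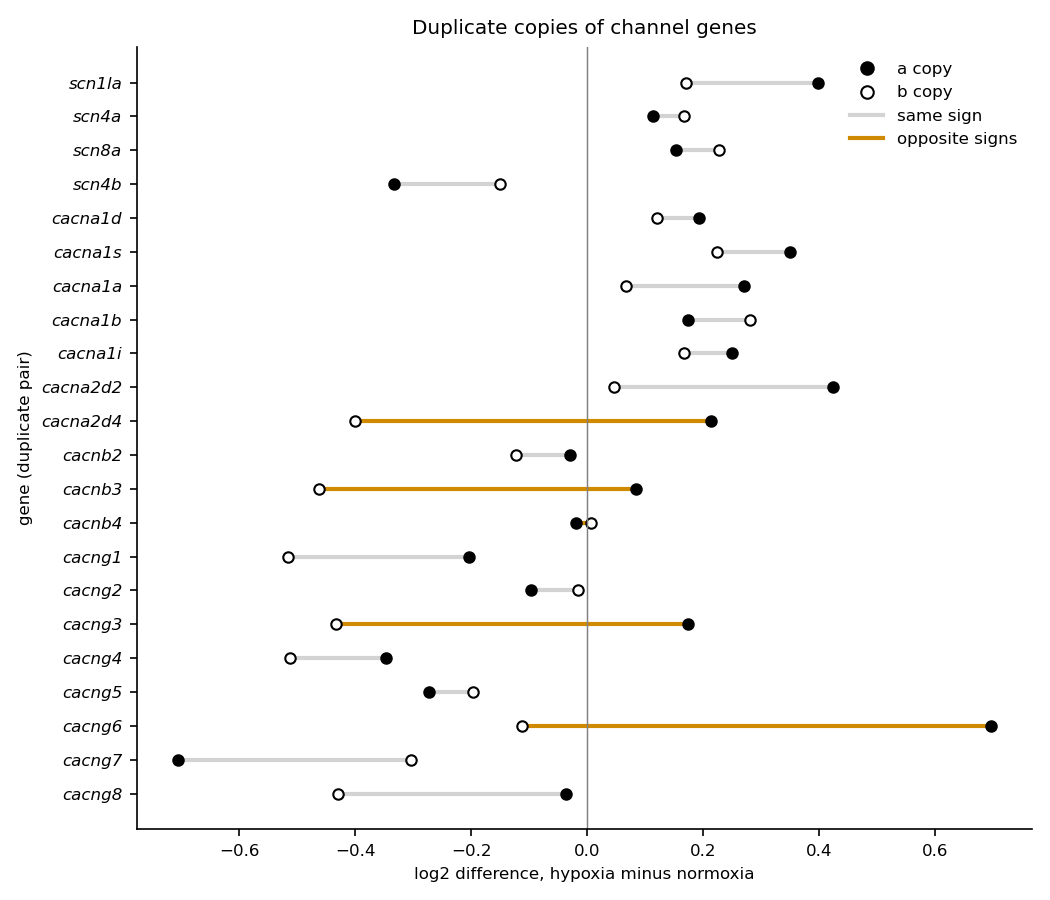
Log2 difference, hypoxia minus normoxia (horizontal axis), of the a copy (filled) and the b copy (open) of the 22 duplicated channel genes (vertical axis), from sodium pores at the top to the gamma family at the bottom. All 8 pore-forming pairs lie right of 0, and the 5 pairs joined by an orange line cross 0.

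To see which fish carried the split, each gene was expressed as its deviation from its own mean over the 6 fish, and the deviations were averaged within a class. Pore-forming genes averaged 0.21, -0.01 and 0.08 in hypoxia 1 to 3 and -0.01, -0.08 and -0.20 in normoxia 1 to 3. Auxiliary genes averaged -0.20, -0.08 and 0.08 in hypoxia and 0.38, -0.13 and -0.06 in normoxia. All genes averaged -0.08, -0.04 and -0.005 in hypoxia and 0.10, -0.01 and 0.04 in normoxia. Hypoxia 1 was thus lowest and normoxia 1 highest among all genes too. With equal array medians the auxiliary genes averaged -0.11 in hypoxia 1 and 0.20 in normoxia 1. High pore values came mainly from hypoxia 1, high auxiliary values from normoxia 1, and the groups overlapped in both. For pore-forming genes the overlap was small, with hypoxia 2 at -0.00637 and normoxia 1 at -0.00573. With equal array medians pore-forming values were 0.09 to 0.30 in hypoxia and -0.24 to -0.06 in normoxia. With quantile normalized genes they were 0.03 to 0.34 and -0.24 to -0.06. The auxiliary groups overlapped under both scalings. Without normoxia 1 the median of the auxiliary genes was 0.04 with 18 of 35 higher, and without hypoxia 1 it was -0.07 with 15 of 35 higher. The median of the pore-forming genes was 0.29 without normoxia 1, and without normoxia 2 it was 0.16 with 17 of 22 higher.

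**Figure D4:**
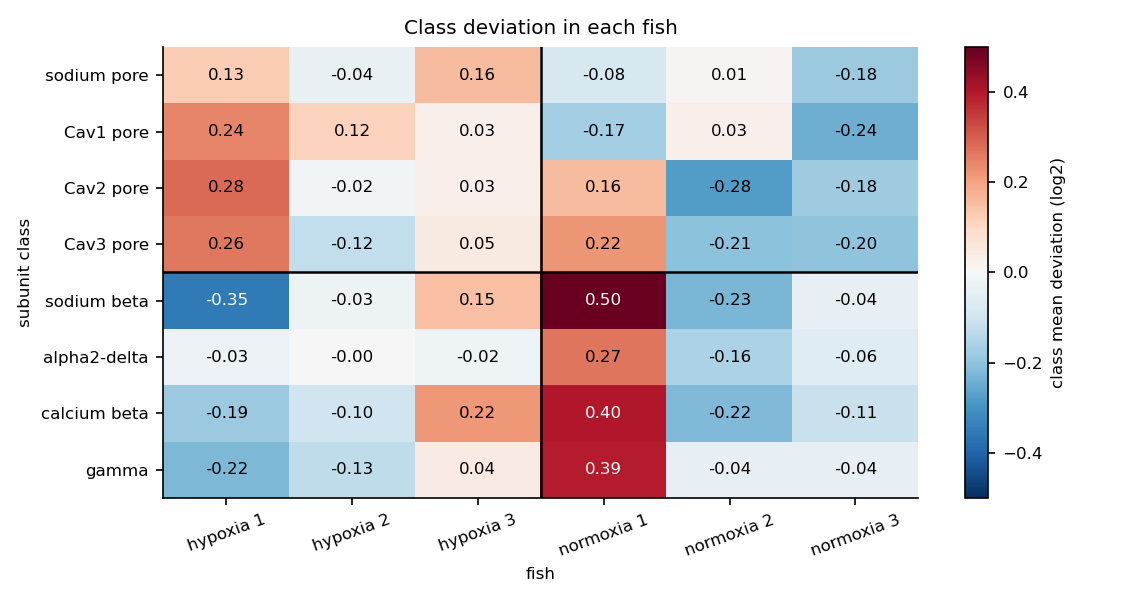
Mean deviation of each subunit class (rows) in each fish (columns, hypoxia left of the line) from the gene means over 6 fish, in log2 units, pore-forming classes above the line. Normoxia 1 is highest in all 4 auxiliary classes at 0.27 to 0.50, and hypoxia 1 is lowest in the gamma genes and sodium beta genes.

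The arrays differed in the spread of their values, and the distance between pore-forming and auxiliary genes moved with it. The mean pore-forming deviation minus the mean auxiliary deviation came to 0.41, 0.07 and -0.000673 for hypoxia 1 to 3, against -0.39, 0.05 and -0.14 in normoxia 1 to 3. The SD of all gene values on the array came to 1.25, 1.34 and 1.42 for the hypoxia fish, against 1.60, 1.27 and 1.47 for the normoxia fish. The array with the largest spread, normoxia 1, had the lowest distance, and the array with the smallest spread, hypoxia 1, had the highest, while normoxia 2 with a small spread lay between hypoxia 2 and hypoxia 3. Quantile normalization of gene values gives all arrays the same spread. After it the distance was 0.34, 0.04 and 0.01 in hypoxia 1 to 3 and -0.26, -0.04 and -0.09 in normoxia 1 to 3, without overlap. The part of array spread in the distance was not tested beyond this scaling and a fit that held spread as a covariate, chosen after the data were seen. In that fit the pore-forming median was 0.22 (17 of 22 higher), the auxiliary median 0.05 (19 of 35 higher) and the distance between the medians 0.17.

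**Figure D5:**
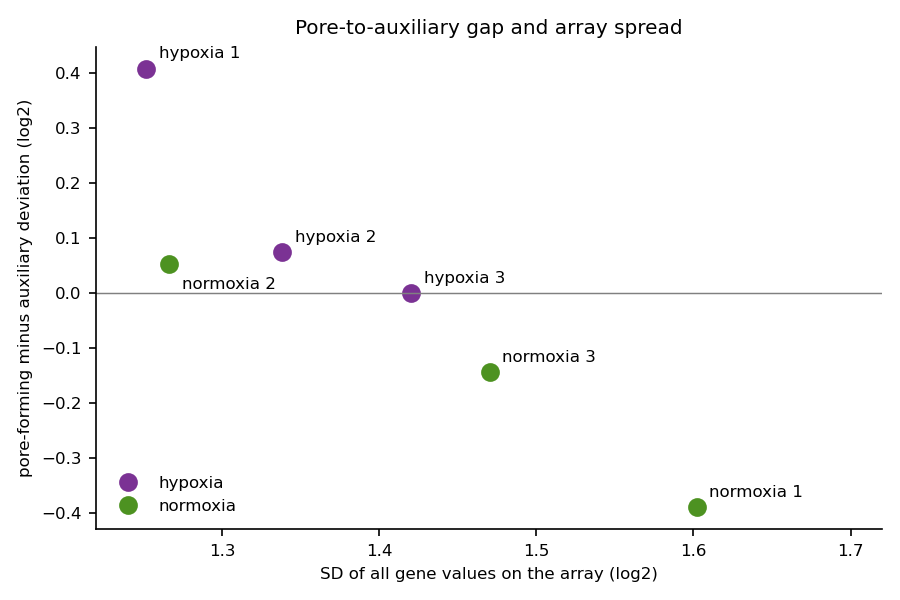
Mean deviation of pore-forming minus auxiliary channel genes in each fish (vertical axis, log2) against the SD of all gene values on its array (horizontal axis, log2). The values are as deposited. The 6 fish run from hypoxia 1 at 0.41 with the smallest spread to normoxia 1 at -0.39 with the largest, and the groups overlap at normoxia 2 and hypoxia 3.

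The difference also varied with level across all genes, from a median of 0.09 in the dimmest of 4 equal bins of level to -0.19 in the brightest. In the brightest bin 22.3% of all genes had a higher mean in hypoxia, against 8 of 9 pore-forming genes with a median of 0.17 and 5 of 22 auxiliary genes with a median of -0.11. The auxiliary count in that bin was near the share of all genes. The 8 gamma genes of that bin were all lower, with a median of -0.25. In the dimmest bin 65.2% of all genes were higher, and so were all 4 pore-forming genes there, the sodium pores scn1laa, scn4aa, scn4ab and scn12aa. With quantile normalized genes their differences were 0.28, 0.00361, 0.03 and -0.02 in that order. After quantile normalization of gene values the median of all genes was 0.01, 21 of 22 pore-forming genes were higher with a median of 0.36, and 21 of 35 auxiliary genes were higher with a median of 0.05. The distance of 0.31 between those medians was close to that of the deposited values.

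Markers of the cells that hold these channels were read beside them. The 7 measured neuron markers, among them snap25a and elavl3, had mean levels from 9.26 to 12.92, with 3 higher and a median difference of -0.02. Their mean deviation stood at -0.23, -0.01 and 0.15 in hypoxia, against 0.39, -0.29 and -0.000357 in normoxia. Normoxia 1 was highest, as it was for the auxiliary genes and for all genes. Of 13 skeletal muscle markers 12 were higher in hypoxia, with a median of 0.17 and mean deviations of -0.06, 0.23 and 0.07 in hypoxia and -0.18, 0.39 and -0.45 in normoxia. Their mean levels ran from 5.31 to 8.23, with a median of 6.84. Of all genes 38.9% were higher, with 65.2% in the dimmest of 4 equal bins of level, 44.2% in the next and 22.3% in the brightest. The 5 cardiac markers were all higher with a median of 0.19. Of 9 photoreceptor markers 7 were counted as higher, among them sagb, whose group means were equal at 7.02. The photoreceptor median was 0.17, with mean deviations of 0.56, -0.68 and 0.47 in hypoxia and -0.38, -0.33 and 0.37 in normoxia. Markers of microglia (0 of 5 higher), radial glia (1 of 5), oligodendrocytes (1 of 3), endothelium (0 of 4) and blood (0 of 3) mostly had lower means in hypoxia. The radial glia markers were bright, with a median level of 11.1. The part of level in these marker counts was not tested. Pituitary markers split the fish without regard to group, with mean deviations of 2.02 in hypoxia 3 and 2.66 in normoxia 3 and from -1.61 to -0.80 in the other 4. The part of these cells was not tested in the values of the muscle-type genes scn4aa, scn4ab, cacna1sa, cacna1sb, cacnb1, cacng1a, cacng1b, cacng6a and cacng6b. Of these genes cacng1a (-0.20), cacng1b (-0.52) and cacng6b (-0.11) had lower means in hypoxia and the others higher means. The part of these cells was not tested either for the photoreceptor-type genes cacna1fb (0.39), cacna2d4a (0.21) and cacna2d4b (-0.40), which differed in sign.

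Genes that work with the channels were taken as lists. Of 25 measured sodium channel partners and members of the leak channel complex NALCN, 10 were counted as higher in hypoxia, with a median of -0.06. Among these 10 was nrcama, whose group means were equal. Of all genes 38.9% had a higher mean. In this list 0 genes passed the adjusted threshold (0.00519% of all genes) or the unadjusted one (0.903% higher and 5.76% lower). The 3 with the smallest p were nfascb, a neurofascin that clusters channels at the axon (-0.47), ank2b, an ankyrin that ties membrane proteins to spectrin (0.31), and fgf13a, of the intracellular growth factors that bind sodium channels (-0.36). Of 29 calcium channel regulators and effectors 13 were counted as higher, among them rims1b with equal group means. Their median was -0.04, and again 0 passed either threshold. Beside those shares of all genes, a count of 0 in lists this short says little. Here the smallest p belonged to the calcium-binding protein genes cabp5a (-0.45) and cabp4 (0.32) and to stac3 (0.35), which muscle needs to couple Cav1.1 to calcium release.

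Of 56 genes of calcium clearance, stores and buffering 34 were counted as higher, among them pvalb4 with equal group means. The median of the 56 genes was 0.05. None of these passed the limma adjusted threshold, and 2 higher (3.57%) and 5 lower genes (8.93%) had an unadjusted p under 0.05, against 0.903% and 5.76% of all genes. casq2 encodes calsequestrin, which holds calcium in stores. It read 6.43, 7.22 and 7.44 in hypoxia and 8.76, 7.55 and 8.48 in normoxia, without overlap, a difference of -1.23 (SE 0.356, adjusted p = 0.72). The calretinin gene calb2b read 7.95, 9.29 and 8.99 in hypoxia and 10.47, 9.28 and 9.63 in normoxia, a difference of -1.05. Hypoxia 1 was the lowest fish and normoxia 1 the highest for both, the same 2 fish that set the range of the auxiliary channel genes. The parvalbumin gene pvalb6 had a difference of -0.62, from 11.50, 12.13 and 12.22 in hypoxia and 12.75, 12.37 and 12.60 in normoxia.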

How the data were processed

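Brain RNA of 3 hypoxia and 3 normoxia fish was measured on 1 array each, and the groups came from the sample titles. Per the series' design text the authors corrected background and quantile normalized with RMA. Affymetrix Expression Console was the software, per the submitters' processing notes (version not given in the sources used here). What was deposited is read as log2 values because of its range, and its columns keep unequal medians. Arrays give no molecule count, so precision rests on 3 fish per group.

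Of 75212 rows, 20806 named 1 gene, 855 several and 53551 none. Rows were averaged per gene, with symbols updated through Entrez identifiers (RefSeq, GRCz12tu), which matched all 57 channel genes. limma 3.58.1 in R 4.3.3 was fitted to all 19260 genes without covariates or a filter, with Benjamini-Hochberg adjustment and a threshold of 0.05. The procedure was tested on simulated data with planted differences larger than that of any channel gene. That test therefore does not cover differences of the size reported here. Classes and lists were described by counts and medians, without a test.

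Members and lists were chosen with earlier results of these data known. Channel genes were named by a rule: the 3 smallest p and 2 largest differences of each class, all genes without overlap, rows or copies of opposite sign, and the 3 smallest p of each partner list. Other channel genes appear with single values, and some of their values per fish (scn4aa, scn3b and cacng4b) were chosen after the values were seen. Alternatives comprised leaving out each array, a replicate block, other scalings, dim filters, the brightest row, trend, robust moderation, array weights and all rows. Array spread as a covariate and quantile normalization of all rows were added after the data were seen.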

Additional observations from a re-analysis of the deposited data

How the results depend on the processing

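No channel gene passed the adjusted threshold under any alternative except array weights, where 22 did. That fit put a weight of 39.9 on normoxia 3 and called 7550 of all genes, so it says little. With all rows in place of genes 0 of 65 channel rows passed (limma), and 0 of all rows did. cacng6a and cacng7a had an unadjusted p under 0.05 in every alternative at gene level. Of 561 differences of the 33 named channel genes under alternatives, 525 kept their sign, and 22 genes kept it throughout. Part of this count was fixed in advance. A replicate block, dim filters, trend and robust moderation leave a difference unchanged, and the brightest row can change only genes with several rows. The series design names no pairing of fish by replicate number. Deviations of same-numbered fish correlated at -0.34, 0.10 and 0.20. Deviations from a mean of 3 fish are bound to each other, so these values cannot settle whether the fish were paired. With a replicate block 1 lower channel gene (1.75%) had an unadjusted p under 0.05 in place of 2, against 4.80% of all genes.

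With 1 array left out, channel genes at an unadjusted p under 0.05 numbered 1 to 6 higher and 1 to 9 lower, most without normoxia 2 (6 and 9), where 8.32% of all genes were higher and 16.3% lower, near the channel shares of 10.5% and 15.8%. Auxiliary genes with a higher mean numbered 6 to 18, the pore-forming median ran from 0.13 to 0.29 and the alpha2-delta median from -0.22 to 0.10. The range crossed 0 for 23 of the 57 channel genes, 14 of them outside the naming rule (among these scn8aa, scn4aa, scn4ab, scn3b, scn2b, cacna1ab and cacna1ha). The others were scn5lab (-0.0825 to 0.12), scn12aa (-0.0517 to 0.18), scn8ab (-0.005 to 0.37), scn1lab (-0.0533 to 0.41), cacnb2b (-0.28 to 0.11), cacnb3a (-0.10 to 0.35), cacnb4a (-0.21 to 0.17), cacnb4b (-0.21 to 0.24) and cacng6b (-0.38 to 0.14).

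With equal array medians 6 higher (10.5%) and 1 lower channel gene (1.75%) had an unadjusted p under 0.05, against 2.90% and 2.55% of all genes. There 19 auxiliary genes had a higher mean, and medians were 0.31 for pore-forming genes, 0.30 for sodium pores and 0.39 for Cav1 pores. cacnb2b (0.0167), cacnb4a (0.12) and cacng6b (0.0267) changed sign. After quantile normalization of gene values the counts were 8 (14.0%), 1 (1.75%) and 21, against 3.48% and 4.23% of all genes for the p counts. Medians were 0.36 for pore-forming genes, 0.37 for Cav1 pores and 0.17 for alpha2-delta genes. There scn4bb (0.0486), cacnb2b (0.0789), scn12aa (-0.0207), cacnb4a (0.18) and cacng6b (0.0119) changed sign. With array weights the counts were 18 (31.6%), 9 (15.8%) and 15, against 19.2% and 30.0% of all genes. In that fit the medians were 0.28 for pore-forming genes and 0.40 for Cav1 pores, and cacnb2b (0.18), cacnb4a (0.000719), cacnb4b (-0.0106) and cacng6b (0.40) changed sign. With array spread as a covariate the counts were 6 (10.5%), 1 (1.75%) and 19, against 2.53% and 5.11% of all genes. Here scn4bb (0.0464), cacnb2b (0.0541), scn12aa (-0.0427), scn5lab (-0.00466), cacna2d4a (-0.13) and cacnb4a (0.26) changed sign. After quantile normalization of all rows 14 auxiliary genes had a higher mean, and scn12aa (-0.0587) and cacnb4a (0.0544) changed sign. With the brightest row scn5lab was -0.06. The causes were not tested. With 3 fish per group the median standard error was 0.23, and 34 of the 57 channel genes had a difference smaller than their own standard error.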
